A study of Mus musculus with 2 samples.

Results

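The genes described here are the 78 of 17245 listed gene symbols whose names mark them as parts of cAMP signalling: the α-subunits Gnas and Gnai1 to Gnai3, the adenylyl cyclases (Adcy), the phosphodiesterase family (Pde), the subunits of protein kinase A (Prkac, Prkar), the Rap exchange factors (Rapgef), the A-kinase anchoring proteins (Akap), and the transcription factors and coactivators Creb, Crem and Crtc. They were taken by name alone, so some are not cAMP proteins. Pde5a, Pde9a and the Pde6 genes act on or with cGMP, Pde12 and Pde4dip are not cyclic-nucleotide esterases, Rapgef1 is not known to bind cAMP, and the Creb3 subfamily consists of membrane-bound factors of the endoplasmic reticulum. RNA came from mouse pancreatic islets that had been freed with collagenase, picked by hand and cultured in RPMI-1640: 1 library labelled KO, which the series' design names as cGASβKO, a deletion of the DNA sensor cGAS in β-cells, and 1 library labelled WT. Of age, sex, strain, the driver of the deletion and the number of mice pooled, nothing is given in the sources used here.

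Because there was 1 library per genotype, no difference had a replicate check and no p-value was computed. Levels are the authors' deposited FPKM, which are corrected for gene length. The library totals implied by the values were 14537660 reads for KO and 19097001 for WT. A gene was counted as expressed at 1 FPKM or more in either library, which 12428 genes reached. Differences are log2 ratios of KO over WT after adding 1 FPKM to each, with a limit at 2-fold on that scale; ratios of FPKM carry exact 95% intervals for counting error only. Cgas, the targeted gene, was at 0.521 FPKM in KO and 0.205 FPKM in WT (ratio 2.55, interval 1.35 to 4.98). Cgas was under the 1 FPKM limit in both libraries, on no fewer than 31 reads in KO and 16 in WT. A whole-gene value from whole islets does not show whether an exon was deleted in β-cells. Cgas was not lower in the library labelled KO, so each direction below is between the libraries as labelled. Hormone transcripts of islets were the main ones in both, with Ins1 at 237131 FPKM in KO and 113793 FPKM in WT, Ins2 at 182558 FPKM in KO and 250577 FPKM in WT, and Gcg at 26588 FPKM in KO and 27070 FPKM in WT. Most other β-cell markers were lower in KO and are counted below.

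In β-cells, glucagon-like peptide-1 and other hormones act through the stimulatory G protein on adenylyl cyclases, which make cAMP, while inhibitory G proteins restrain them. cAMP releases the catalytic subunits of protein kinase A from its regulatory subunits and activates the Epac exchange factors, and both arms raise insulin secretion. Phosphodiesterases end the signal, anchoring proteins hold the kinase at particular places in the cell, and CREB with its CRTC coactivators carries the signal to genes.

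CREB binds the cAMP response element, so the sequence before the start of each gene was searched for it. RefSeq promoters on GRCm38.p6 were matched for 63 of the 78 genes and the 250 bases before each start were read. The full element TGACGTCA, a palindrome, was present in 2 of their 115 promoters, 1.74%, against 1.55% of all 32851 RefSeq promoters. Among expressed genes it was found before 1 of 51 cAMP signalling genes (1.96%) and before 3.16% of 9959 genes. The promoters belonged to Prkar1a and Creb5. Its core TGACG, on either strand and also part of the full element, was in 20.9% of the 115 promoters and in 17.8% of all. Among expressed genes the core was found before 14 of 51 cAMP signalling genes (27.5%) and before 30.5% of 9959 genes. A match of letters is a description and not a bound site. The following 4 sequences are the gene with the widest difference (Pde5a), the most abundant catalytic subunit (Prkacb), the expressed gene with a full element (Prkar1a, at one of its alternative starts) and the gene with the widest difference upward (Akap8l, at a start inside the gene as annotated), 5′ to 3′ along the gene, with cores and full elements in capitals.
Pde5a, chr3:122728908-122729157, plus strand: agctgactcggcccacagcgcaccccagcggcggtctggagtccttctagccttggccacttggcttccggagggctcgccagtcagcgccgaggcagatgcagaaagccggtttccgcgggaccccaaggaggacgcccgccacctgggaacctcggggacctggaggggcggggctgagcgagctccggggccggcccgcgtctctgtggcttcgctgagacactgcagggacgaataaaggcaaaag
Prkacb, chr3:146812947-146813196, minus strand: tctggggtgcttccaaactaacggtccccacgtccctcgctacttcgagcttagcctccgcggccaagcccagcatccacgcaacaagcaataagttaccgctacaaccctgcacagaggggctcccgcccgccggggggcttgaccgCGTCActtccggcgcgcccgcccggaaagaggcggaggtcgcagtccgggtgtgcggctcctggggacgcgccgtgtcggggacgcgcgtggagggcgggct
Prkar1a, chr11:109650699-109650948, plus strand: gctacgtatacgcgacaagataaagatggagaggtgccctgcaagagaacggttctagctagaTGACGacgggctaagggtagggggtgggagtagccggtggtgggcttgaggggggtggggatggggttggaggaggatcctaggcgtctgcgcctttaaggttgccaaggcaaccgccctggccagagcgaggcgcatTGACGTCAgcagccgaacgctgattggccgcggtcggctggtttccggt
Akap8l, chr17:32350578-32350827, minus strand: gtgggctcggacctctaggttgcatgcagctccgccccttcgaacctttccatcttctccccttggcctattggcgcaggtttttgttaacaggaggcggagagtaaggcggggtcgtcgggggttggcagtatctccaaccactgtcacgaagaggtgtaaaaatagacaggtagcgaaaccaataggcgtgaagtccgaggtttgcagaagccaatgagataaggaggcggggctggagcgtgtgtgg
The full element of Prkar1a begins at position -49 from the start, and the single core of Prkacb at position -102. No core was found in the Pde5a and Akap8l windows.

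Of the 78 genes, 60 were expressed. Of these, 3 passed the 2-fold limit upward in KO, Akap8l, Akap17a and Adcy4, that is 5% against a background of 6.98% of all expressed genes. Downward 7 passed it, Pde5a, Creb3l2, Prkacb, Pde3b, Akap11, Gnai3 and Prkar2b, that is 11.7% against a background of 3.88%. Of these 7, Pde5a and Creb3l2 are not cAMP proteins, and they alone stayed past the limit after removal of the trend described below. Without genes not known to handle cAMP, 5 of 50 expressed genes passed the limit downward and 3 upward, against the same backgrounds. Of the 60, 50 lay within the limit, 30 were above 0 and 30 below. Their median log2 ratio was 0.0033, beside 0.077 for all expressed genes. Counting intervals of the ratio lay wholly below 1 for 28 of the 60 and wholly above 1 for 22. The 18 genes under 1 FPKM in both libraries included the soluble cyclase Adcy10, the calcium-stimulated cyclase Adcy8, Pde3a, Pde4d and the retinal Pde6 enzymes.

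**Figure D1:**
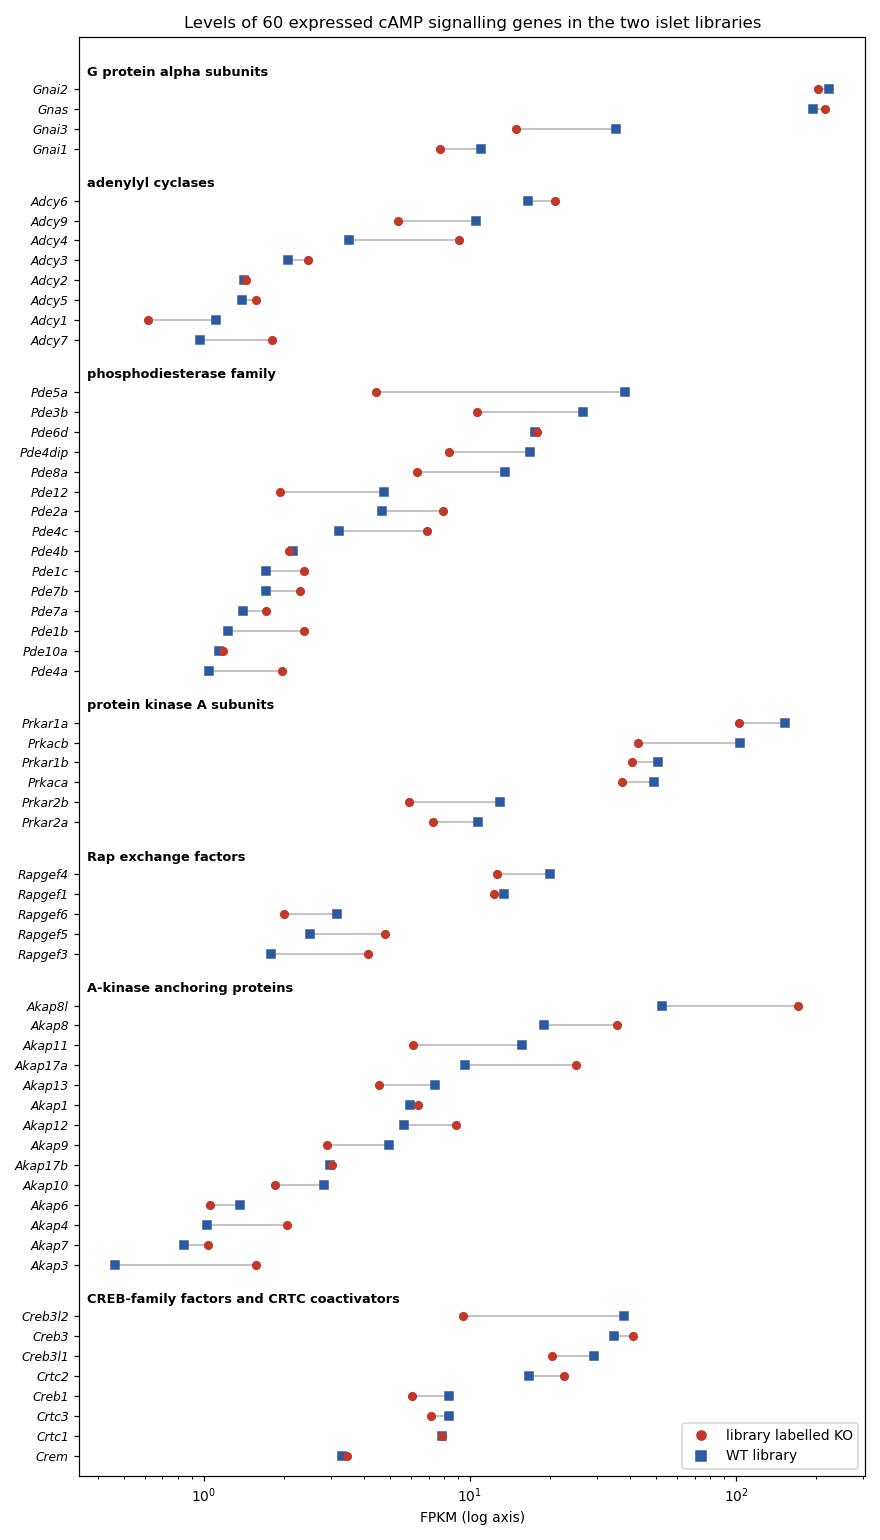
FPKM (log axis) of the 60 expressed cAMP signalling genes in the library labelled KO (circles) and the WT library (squares), by role and ordered by WT level; each point is 1 library. The widest gap is that of Pde5a, at 4.43 FPKM in KO and 38.2 FPKM in WT, and all 6 protein kinase A subunits have the KO circle on the left.

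**Figure D2:**
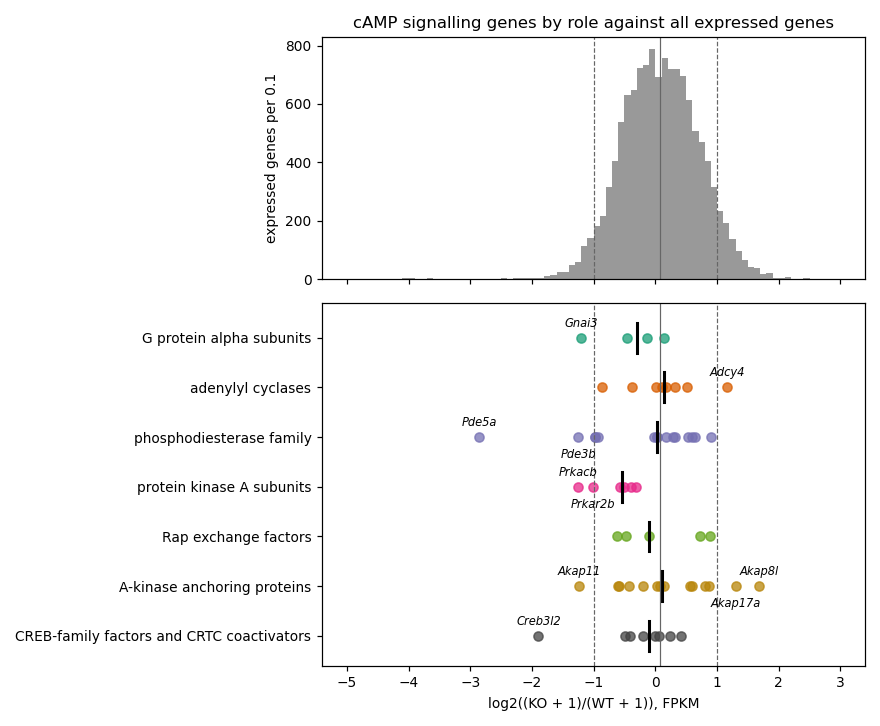
The upper panel counts all 12428 expressed genes by log2((KO + 1)/(WT + 1)) in steps of 0.1, and the lower panel places each expressed cAMP signalling gene by role, with a black bar at the median of the role; dashed lines mark the 2-fold limit and the solid line the median of all genes. Of the labelled genes, 7 lie left of the lower limit and 3 right of the upper one.

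The G protein α-subunits open the pathway, and Gnas and Gnai2 were its most abundant transcripts in both libraries. Gnas, the stimulatory subunit, was at 216 FPKM in KO and 195 FPKM in WT, a ratio of 1.11 (1.09 to 1.12). Gnai2, the main inhibitory subunit here, was at 204 FPKM in KO and 224 FPKM in WT, a ratio of 0.910 (0.882 to 0.938). Both lay close to equality, and the log2 ratio of Gnas, 0.14 as deposited, was -0.0061 after scaling on all but the 20 highest genes and -0.20 after removal of the trend described below. Gnai3, a second inhibitory subunit, was lower, at 14.9 FPKM in KO and 35.4 FPKM in WT (ratio 0.420, 0.385 to 0.457). Gnai1, the third, was at 7.73 FPKM in KO and 11 FPKM in WT (ratio 0.703, 0.617 to 0.80). Gnai3 thus held 6.57% of the summed Gnai FPKM in KO and 13.1% in WT. After removal of the trend the log2 ratios of Gnai3 and Gnai2 were -0.90 and -0.58, closer together than the -1.20 and -0.14 as deposited. Gnas shares 22% of its exon bases with annotated neighbours, Nespas among them, and the strand setting of the counting is not given.

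Of 10 adenylyl cyclases, 8 were expressed, with a median of 0.14 that was -0.052 once the dependence on transcript GC and length, described below, was taken out. Adcy6, a cyclase inhibited by calcium, was the most abundant, at 20.9 FPKM in KO and 16.5 FPKM in WT (ratio 1.27, 1.21 to 1.33). Adcy9, a widely expressed cyclase that forskolin stimulates poorly, stood second in WT and was at 5.35 FPKM in KO and 10.5 FPKM in WT (ratio 0.509, 0.467 to 0.554), just short of the limit at a log2 ratio of -0.86. Adcy4 was higher, at 9.13 FPKM in KO and 3.51 FPKM in WT (ratio 2.61, 2.22 to 3.06). Second place among the cyclases therefore went to Adcy4 in KO and to Adcy9 in WT: Adcy4 made up 20.9% of their summed FPKM in KO and 9.25% in WT, and Adcy9 12.2% in KO and 27.8% in WT. Adcy1, which calcium and calmodulin stimulate, was at 0.620 FPKM in KO and 1.11 FPKM in WT, from no fewer than 37 and 87 reads. Adcy7 was at 1.81 FPKM in KO and 0.970 FPKM in WT, a log2 ratio of 0.51. The levels of Adcy2, Adcy3 and Adcy5 lay between 1.39 and 2.47 FPKM in both libraries, and their intervals included 1.

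Adcy4 is known from endothelial cells, as are the exchange factor Rapgef3 and the phosphodiesterase Pde2a described below. All 12 endothelial markers checked, Pecam1 and Cdh5 among them, were above 0, 6 of them past the limit. After removal of the GC and length trend described below, 5 were past it. Their summed level was 842 FPKM in KO and 367 FPKM in WT, with none at 0. For these and the lists that follow, 6.98% of all expressed genes were past the limit upward and 3.88% downward. With the trend removed these shares were 3.24% and 2.96%. Macrophage markers summed to 391 FPKM in KO and 169 FPKM in WT. Past the limit upward were 7 of 12, against 1 of 12 after removal of the trend. Stromal markers summed to 221 FPKM in KO and 116 FPKM in WT. Of 11 expressed stromal markers, 2 were past the limit upward, and 3 after removal of the trend. Acinar markers summed to 149 FPKM in KO and 2019 FPKM in WT, with 13 of 13 expressed markers past the limit downward and the acinar regulator Ptf1a listed at 0 in KO. Of 11 β-cell markers, 8 were below 0, with a median of -0.65 and none at 0. Past the limit were 4 downward, G6pc2, Glp1r, Nkx6-1 and Slc2a2, and 1 upward, Ins1. After removal of the trend 5 were past it downward, G6pc2, Glp1r, Nkx6-1, Ins2 and Iapp, and none upward. The 8 α-cell markers had a median of 0.084, with Gcgr alone past the limit, upward. After removal of the trend their median was -0.061 and none passed it. The 4 δ-cell markers lay within the limit, with a median of 0.64 that was 0.043 after removal of the trend. The part of these cell types in the differences of cAMP signalling genes was not tested. In whole-islet RNA, fewer cells of a type and less RNA per cell cannot be told apart.

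The phosphodiesterase family held the widest difference. Pde5a, which hydrolyses cGMP, was at 4.43 FPKM in KO and 38.2 FPKM in WT, a ratio of 0.116 (0.0999 to 0.134), or 8.63-fold lower. On the log2 scale it was at -2.85, and only 21 of the 12428 expressed genes lay lower. In WT it was the most abundant gene of the family, and in KO it stood below Pde6d, Pde3b, Pde4dip, Pde2a, Pde4c and Pde8a. The gene lies on chromosome 3 from 122729158 to 122859374 in GRCm38.p6.

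Among enzymes that break down cAMP, 1 passed the limit, downward, and none upward. Pde3b, the insulin-activated enzyme that limits cAMP in β-cells and fat cells, was lower, at 10.6 FPKM in KO and 26.6 FPKM in WT (ratio 0.399, 0.368 to 0.432). Pde8a, a cAMP-specific enzyme of high affinity, was at 6.34 FPKM in KO and 13.5 FPKM in WT (ratio 0.470, 0.426 to 0.518), a log2 ratio of -0.98 that just missed the limit. Pde4c, of the rolipram-sensitive cAMP-specific class, was at 6.88 FPKM in KO and 3.22 FPKM in WT (ratio 2.13, 1.82 to 2.51), and at 0.90 on the log2 scale it also missed it. Pde2a, which cGMP stimulates, was at 7.91 FPKM in KO and 4.69 FPKM in WT, with 64.3% of its exon bases shared with the annotated transcript Gm45837. Pde1b, an enzyme dependent on calcium and calmodulin, was at 2.38 FPKM in KO and 1.24 FPKM in WT (ratio 1.93, 1.46 to 2.55), and its relative Pde1c at 2.38 FPKM in KO and 1.72 FPKM in WT. Pde4a was at 1.96 FPKM in KO and 1.05 FPKM in WT, and Pde4b at 2.10 FPKM in KO and 2.16 FPKM in WT, with an interval from 0.874 to 1.08.

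The make-up of the family therefore differed between the libraries. Over 20 genes of the family, leaving out Pde4dip, Pde12, Pde6d, Pde6g and Pde6h, the summed FPKM was 53.3 in KO and 99.1 in WT. Pde5a was 8.31% of that sum in KO and 38.6% in WT, Pde3b 19.9% in KO and 26.9% in WT, and Pde4c 12.9% in KO and 3.25% in WT. The sum is thus not one of cAMP breakdown alone, since it includes Pde5a, at 4.43 FPKM in KO and 38.2 FPKM in WT. Its lower level also raises the share of every other gene in KO, and the FPKM ratio of Pde4c itself was 2.13. Of the family members that are not such enzymes, Pde4dip, a scaffold of the Golgi and centrosome, was at 8.38 FPKM in KO and 16.8 FPKM in WT. Pde12, a mitochondrial enzyme that shortens oligoadenylates, was at 1.93 FPKM in KO and 4.76 FPKM in WT. Pde6d, a carrier of prenylated proteins, was nearly equal, at 17.9 FPKM in KO and 17.6 FPKM in WT.

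**Figure D3:**
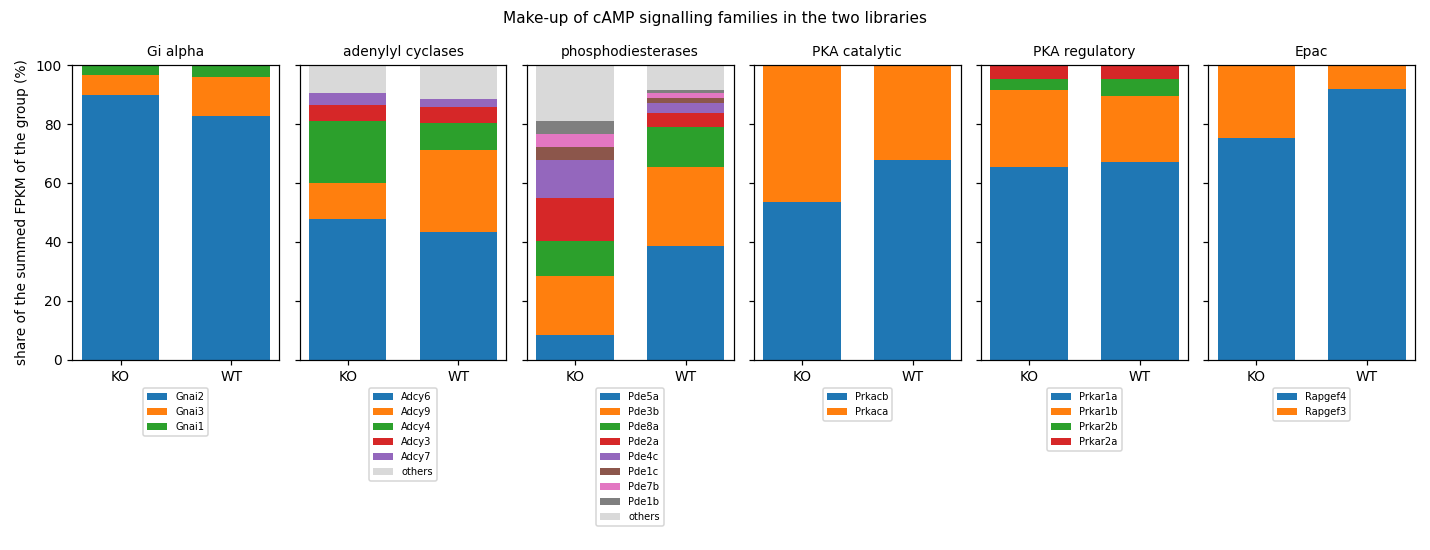
Share (%) of the summed FPKM taken by each member in 6 groups, with KO on the left of each pair of bars and WT on the right; members under 4% in both libraries are joined as others. The blocks of Pde5a, Prkacb, Adcy9, Gnai3 and Rapgef4 are smaller in KO than in WT, and those of Pde4c, Adcy4 and Rapgef3 are larger.

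All 6 subunits of protein kinase A were lower in KO than in WT, with counting intervals of the ratio wholly below 1. Of the 8 alternative settings, only removal of the GC and length trend described below could have raised them above 0. All 6 stayed below 0 in that setting. An added value or a change of floor cannot change a sign, and the scalings all lowered KO relative to WT. As deposited, Prkacb and Prkar2b alone passed the limit, 33.3% of the 6 against 3.88% of all expressed genes. After removal of the GC and length trend described below neither did, and with an added 5 FPKM Prkar2b did not, at -0.72. The median of the 6 was -0.54, beside 0.077 for all expressed genes, of which 5662 lay below 0. With the trend removed it was -0.70, beside -0.012 for all expressed genes. Prkacb, the catalytic subunit β, was at 42.8 FPKM in KO and 104 FPKM in WT (ratio 0.412, 0.396 to 0.429). Prkaca, the catalytic subunit α, was at 37.3 FPKM in KO and 49.1 FPKM in WT (ratio 0.759, 0.662 to 0.869). The intervals of the catalytic subunits did not overlap, and Prkacb made up 53.5% of their sum in KO and 67.9% in WT. Their log2 ratios were -1.26 for Prkacb and -0.39 for Prkaca as deposited, and lay closer together after removal of the trend, at -0.98 for Prkacb and -0.74 for Prkaca.

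Among the regulatory subunits, Prkar1a, the most abundant, was at 102 FPKM in KO and 152 FPKM in WT (ratio 0.672, 0.651 to 0.693). Prkar1b was at 40.7 FPKM in KO and 50.9 FPKM in WT (ratio 0.801, 0.757 to 0.848). Prkar2a was at 7.28 FPKM in KO and 10.7 FPKM in WT (ratio 0.679, 0.610 to 0.756). Prkar2b was the widest, at 5.90 FPKM in KO and 13 FPKM in WT (ratio 0.456, 0.40 to 0.517). Both type I subunits stood above both type II subunits in each library. Summed over subunits, regulatory FPKM was 1.95 times catalytic FPKM in KO and 1.48 times in WT, since catalytic transcripts stood at 80.0 FPKM in KO and 153 FPKM in WT and regulatory transcripts at 156 FPKM in KO and 227 FPKM in WT.

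Neither of the cAMP-activated Rap exchange factors passed the limit, and they lay on opposite sides of equality. Rapgef4, the Epac2 of β-cells, was at 12.6 FPKM in KO and 20.0 FPKM in WT (ratio 0.631, 0.590 to 0.675). Rapgef3, or Epac1, was at 4.14 FPKM in KO and 1.79 FPKM in WT (ratio 2.32, 2.02 to 2.67), a log2 ratio of 0.88. Rapgef3 made up 24.7% of the summed Epac FPKM in KO and 8.20% in WT. Of the other factors, Rapgef1 was at 12.3 FPKM in KO and 13.4 FPKM in WT, Rapgef5 at 4.81 FPKM in KO and 2.51 FPKM in WT, and Rapgef6 at 2.0 FPKM in KO and 3.18 FPKM in WT. Rapgef2 did not reach 1 FPKM in either library.

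Of 14 expressed anchoring proteins, 2 passed the limit upward (14.3%) and 1 downward (7.14%), against 6.98% and 3.88% of all expressed genes. None passed it downward with an added 5 FPKM or after removal of the trend. Akap8l, a nuclear protein related to Akap8, was at 171 FPKM in KO and 52.9 FPKM in WT (ratio 3.24, 3.08 to 3.41), and 72 expressed genes lay higher. It was the third most abundant of the 60 genes in KO and the fifth in WT. Akap8, a nuclear anchoring protein that takes part in chromatin condensation, was at 35.7 FPKM in KO and 19.0 FPKM in WT (ratio 1.87, 1.76 to 2.0). The genes are neighbours on chromosome 17, Akap8 from 32303672 to 32321238 and Akap8l from 32321424 to 32350616, with 185 bases between them. Of all 622 expressed genes of chromosome 17, 12.1% were past the limit upward, with a median of 0.28. Over all chromosomes these were 6.98% and 0.077. Akap17a, which also acts as a splicing factor, was at 25 FPKM in KO and 9.56 FPKM in WT (ratio 2.62, 2.32 to 2.95).

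Akap11, a large anchoring protein that also binds glycogen synthase kinase, was lower, at 6.09 FPKM in KO and 15.7 FPKM in WT (ratio 0.388, 0.359 to 0.420). Akap13 was at 4.57 FPKM in KO and 7.41 FPKM in WT, and Akap9, of the Golgi and centrosome, at 2.92 FPKM in KO and 4.95 FPKM in WT. Akap12, a scaffold for β-adrenergic receptors, was at 8.85 FPKM in KO and 5.65 FPKM in WT (ratio 1.57, 1.41 to 1.74). Akap1, the mitochondrial anchor, was nearly equal, at 6.38 FPKM in KO and 5.98 FPKM in WT. Akap3, known from the sperm tail, had a ratio of 3.38 (2.16 to 5.43) on no fewer than 72 reads in KO and 28 in WT, at 1.57 FPKM in KO and 0.465 FPKM in WT. The median of the 14 expressed anchoring proteins was 0.11. It was -0.049 over 13 after scaling on all but the 20 highest genes and 0.35 over 13 after removal of the trend. Over the 7 that reached 5 FPKM it was 0.57.

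**Figure D4:**
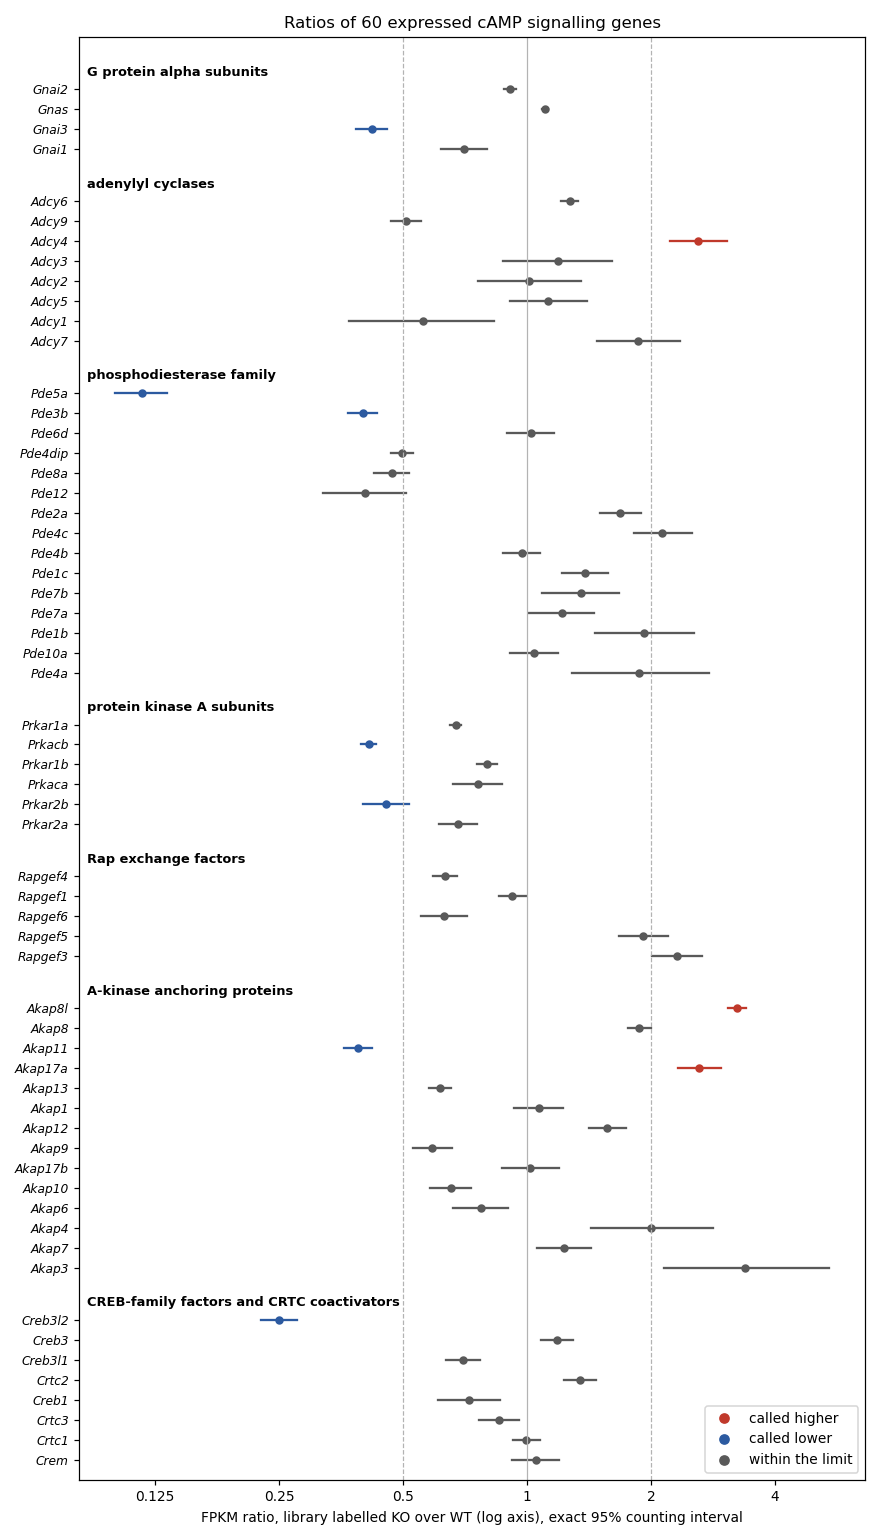
Ratio of FPKM in the library labelled KO over WT (log axis) for the 60 expressed cAMP signalling genes, with exact 95% intervals for counting error; dashed lines mark ratios of 0.5 and 2, and colour the calls made on the log2(FPKM + 1) scale. Low genes such as Akap3, with a ratio of 3.38, lie past a dashed line without a call because the added 1 FPKM narrows their difference.

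At the nuclear end of the pathway, Creb1, Crem and the Crtc coactivators lay within the limit, and a factor of the secretory pathway lay past it. Creb1 was at 6.05 FPKM in KO and 8.36 FPKM in WT (ratio 0.724, 0.609 to 0.860), but its log2 ratio of -0.41 turned to 0.12 after removal of the trend. Crem, which also encodes the repressor ICER, was at 3.46 FPKM in KO and 3.30 FPKM in WT, with an interval that included 1 (0.918 to 1.2). Crtc2, the coactivator that cAMP and glucose bring to the nucleus of β-cells, was at 22.5 FPKM in KO and 16.7 FPKM in WT (ratio 1.35, 1.23 to 1.47), a log2 ratio of 0.41 that was 0.0094 after removal of the trend. Crtc1 was at 7.84 FPKM in KO and 7.87 FPKM in WT and Crtc3 at 7.15 FPKM in KO and 8.35 FPKM in WT. Creb3l2, cut from the endoplasmic reticulum membrane to become a transcription factor, was the gene past the limit, at 9.43 FPKM in KO and 37.8 FPKM in WT (ratio 0.25, 0.225 to 0.276). Of its relatives, Creb3l1 was at 20.4 FPKM in KO and 29.2 FPKM in WT, and Creb3 at 41.0 FPKM in KO and 34.7 FPKM in WT, with 20.8% of the exon bases of Creb3 shared with Gba2 and Tln1. The log2 ratio of Creb3, 0.24 as deposited, was -0.10 after removal of the trend.

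Genes around these roles were taken from lists of receptors, partners and targets chosen by their known function. Of 9 expressed receptors that couple to the stimulatory G protein, 2 were past the limit upward and 2 downward, 22.2% each against 6.98% and 3.88% of all expressed genes, with a median of 0.31. After removal of the trend the median was 0.038 and 1 passed the limit on each side, Gipr and Glp1r, with Gcgr at 0.66 and Gpr119 at -0.88. The glucagon receptor Gcgr was at 25.1 FPKM in KO and 10.4 FPKM in WT, a ratio of 2.41 (2.17 to 2.67), and the lipid receptor Gpr119 at 5.70 FPKM in KO and 12.6 FPKM in WT, a ratio of 0.451 (0.380 to 0.533). The incretin receptors lay on opposite sides, Gipr at 77.8 FPKM in KO and 26.3 FPKM in WT, a log2 ratio of 1.53, and Glp1r at 17.9 FPKM in KO and 99.2 FPKM in WT, a log2 ratio of -2.40. Of 12 expressed receptors that couple to inhibitory G proteins, 1 was past the limit downward, 8.33% against 3.88% of all expressed genes, and none upward. It was the galanin receptor Galr3, at 3.98 FPKM in KO and 10.1 FPKM in WT. The median of the 12 was -0.098. The adrenergic receptor Adra2a was at 24.4 FPKM in KO and 31.4 FPKM in WT, and the somatostatin receptor Sstr3 at 54.7 FPKM in KO and 66.7 FPKM in WT.

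Of 29 expressed partners and regulators, 1 was past the limit, downward, which is 3.45% against 3.88% of all expressed genes, and the median was -0.36. It was the anchoring protein Sphkap, at 28.5 FPKM in KO and 66.2 FPKM in WT, whose log2 ratio of -1.19 was -0.77 after removal of the trend, so that none of the 29 passed the limit there. Among the inhibitors of the protein kinase A catalytic subunit, Pkib was at 1.54 FPKM in KO and 4.07 FPKM in WT, Pkia at 1.87 FPKM in KO and 2.76 FPKM in WT, and Pkig at 20.9 FPKM in KO and 13.6 FPKM in WT. Pkib, with a ratio of 0.379 (0.272 to 0.519), fell just short of the limit, and Pkig lay at a log2 ratio of 0.58 that was -0.00010 after removal of the trend. The coactivator Ep300 was at 6.64 FPKM in KO and 12.1 FPKM in WT, and the kinase Stk11, which acts on the Sik kinases, at 60.2 FPKM in KO and 35.1 FPKM in WT. Of the Epac targets, Rap1a was at 13.8 FPKM in KO and 19.5 FPKM in WT and Rap1b at 71.7 FPKM in KO and 98.4 FPKM in WT.

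Of 23 expressed CREB target genes, 4 were past the limit upward, Fos, Egr1, Fosb and Nr4a1, and 1 downward, the prohormone convertase Pcsk1, with a median of 0.27. The shares were 17.4% upward and 4.35% downward, against 6.98% and 3.88% of all expressed genes. After removal of the trend the median was -0.17, 3 were past the limit upward and none downward, Nr4a1 being at 0.68 and Pcsk1 at -0.92. Fos was at 42.7 FPKM in KO and 5.59 FPKM in WT, and Nr4a1 at 7.32 FPKM in KO and 2.91 FPKM in WT. Pcsk1 was at 37.2 FPKM in KO and 96.3 FPKM in WT (ratio 0.387, 0.371 to 0.403). Irs2, the CREB target of β-cell growth, was at 5.11 FPKM in KO and 9.80 FPKM in WT, a log2 ratio of -0.82. The 4 higher targets are also immediate-early genes that other signals and tissue dissociation induce. Of 16 such genes, these 4 among them, 12 were past the limit upward, 75% against 6.98% of all expressed genes. After removal of the trend 7 were past it, beside 3.24% of all expressed genes. Their summed level was 388 FPKM in KO and 152 FPKM in WT, with none at 0. The lists share genes, and the part of immediate-early genes in the CREB target list was not tested.

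The differences moved with the base composition of the transcripts. Across 12372 expressed genes the log2 ratio had a Spearman correlation of 0.42 with GC content and of -0.39 with transcript length, and across the 59 cAMP signalling genes with a value these were 0.38 and -0.31; all points come from the same pair of libraries. The 7 lower genes had transcripts of 41.7% to 49.7% GC, and the higher Akap8l and Adcy4 had 55.3% and 56.4%. Once a smooth dependence on both had been taken out, Pde5a was at -2.50, Creb3l2 at -1.68 and Akap8l at 1.28, all still past the limit. Adcy4 at 0.86, Prkacb at -0.98, Gnai3 at -0.90, Pde3b at -0.82, Prkar2b at -0.77 and Akap11 at -0.74 no longer passed it. Adcy9 at -1.10, Akap8 at 1.04 and Rapgef5 at 1.11 passed it in that setting. Akap17a had no GC value.

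**Figure D5:**
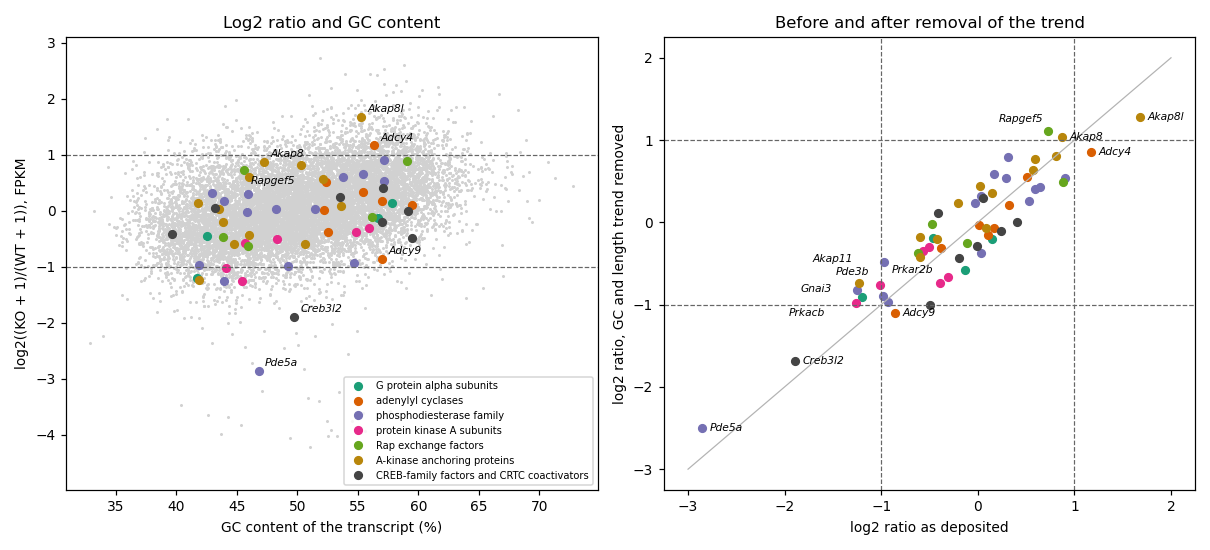
The left panel plots the log2 ratio of all expressed genes (grey) and of cAMP signalling genes (coloured by role) against the GC content of the transcript in percent, and the right panel the log2 ratio of the cAMP signalling genes with the GC and length trend removed against the ratio as deposited. Pde5a, Creb3l2 and Akap8l lie past the dashed 2-fold lines on both axes, at -2.50, -1.68 and 1.28 after removal.

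By position, chromosome 3 held 3 of the 7, Gnai3, Pde5a and Prkacb, among 6 expressed cAMP signalling genes there. Of all 589 expressed genes of chromosome 3, 7.13% were past the limit downward, with a median of -0.019. Gnai3 lies from 108107275 to 108146152 and Prkacb from 146729579 to 146812946, so these genes are not neighbours.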

How the data were processed

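Islet mRNA libraries were made with a SMARTER kit, per the labels' protocols; the build was GRCm38 (mm10), per the submitters' processing notes. Of aligner, counter, annotation and strand setting, nothing is given in the sources used here. The authors deposited FPKM values, 1 column per library, and these were used without further scaling. Genes were selected by symbol pattern and, like the lists and limits, chosen with earlier results of these data known. The rule for full values took genes past the 2-fold limit, the 2 most abundant and 2 widest of each role, and all genes of roles of 6 or fewer.

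Whole reads were recovered by searching gene lengths from 60 to 30000 bases and library totals that turn both values of a gene into whole numbers (tolerance 1e-05 reads plus 1e-09 per read). This held for 17178 of 17245 genes (99.6%) and 77 of the 78. The smallest such reads gave exact Clopper-Pearson 95% intervals, which can be too wide and cover counting error only, since PCR copies are not independent molecules. Expressed cAMP signalling genes had at least 37 reads in KO and 28 in WT. The GC and length trend was a lowess (fraction 0.3, 3 iterations) on the longest coding GENCODE M21 transcript, for 99.5% of expressed genes. Exon overlaps came from the same annotation, coordinates from RefSeq. Python 3.11.15, numpy 2.4.6, scipy 1.17.1 and statsmodels 0.14.6 were used. The steps were tested on simulated data. List genes without a row were not analysed here. Pkia, Pkig, Rap1a, Rap1b, Adra2a and Sstr3 were named for their function, outside the rule.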

Additional observations from a re-analysis of the deposited data

How the results depend on the processing

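The analysis was repeated with an added 0.1 or 5 FPKM, with the floor dropped or set at 5 FPKM, with 3 scalings, after removal of the GC and length trend, and without genes not known to handle cAMP. The count past the limit upward was 6 of 60 with a pseudocount of 0.1, where 12.5% of all expressed genes passed it. The count downward was 11 of 65 with each library scaled to a sum of 1000000, and 3 of 59 with the trend removed. Of all expressed genes, 6.16% and 2.96% were past the limit downward in these settings. The median log2 ratio was -0.35 with a floor of 5 FPKM, beside 0.041 for all genes that reached it. The other counts lay between 2 and 4 upward and 5 and 10 downward, of 36 to 78 genes. Of all genes kept in those settings, 2.45% to 8.75% were past the limit upward and 1.46% to 5.84% downward. With a floor of 5 FPKM, 7 of 36 were past it downward, beside 5.20% of all genes kept. Scaling on all but the 20 highest genes moved the median of all genes to -0.057, against 0.077 as deposited; relative to it the cAMP signalling median was -0.079, against -0.074 as deposited. Of all calls, 64.3% were upward as deposited and 44.3% in that scaling; of the cAMP signalling calls, 30.0% and 23.1%. With the trend removed these shares were 52.3% of all calls and 50% of the cAMP signalling calls, 3 upward and 3 downward. Pde5a, Creb3l2 and Akap8l passed the limit in all 8 alternatives, though a change of floor leaves the values of called genes as they were. None of the 10 called genes changed sign in any. An added value cannot change a sign, and the 3 scalings all lowered KO relative to WT. For the 7 lower genes, a change of sign was therefore possible only with the trend removed. Of the expressed genes within the limit, 10 changed sign with the trend removed, 7 under each of 2 scalings and 3 under the median ratio. No paired analysis was possible because there is 1 library per genotype. For the same reason no library could be left out. At this depth, 10 of the 60 expressed genes had intervals of the ratio that included 1.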
